A study of Gasterosteus aculeatus with 17 samples.

Results

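The genes described here had less gill RNA in marine three-spined sticklebacks (Gasterosteus aculeatus) that had spent 4 days in fresh water, whereas freshwater sticklebacks held in either water differed little. They are 129 of the 22456 genes counted, and they were chosen by measured values. A gene qualified when its mean was at least 5 CPM (a gene's share of all counts in its library, scaled to a common total) in marine fish kept in marine water, when the mean in marine fish in fresh water was lower by at least 0.7 log2 units, when every marine fish in fresh water lay below every marine fish in marine water, and when the ratio between the waters was under 0.5 log2 units in size in freshwater fish. Ratios were taken after adding 0.5 CPM to each mean. Up to 150 genes were to be taken, and all 129 that qualified were kept. The fall in marine fish and the small size of the water difference in freshwater fish are therefore properties of the choice, not findings.

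RNA sequencing of polyadenylated RNA gave 1 gill library for each of 17 wild-caught males in breeding colour. Marine fish, taken from a sea coast, were held in fresh water for 4 days (5 fish, called moved marine fish here) or in marine water (4 fish, kept marine fish). Freshwater fish, taken from a lake, were held in marine water for 4 days (4 fish, moved freshwater fish) or in fresh water (4 fish, kept freshwater fish). Kept fish were captive as well. In each population the new water and the transfer itself cannot be told apart. Libraries held 6932688 to 16108405 counts in moved marine fish, 17993109 to 19450343 in kept marine fish, 23736661 to 27949237 in moved freshwater fish, while kept freshwater fish had 23609866 to 28960967. Depth therefore did not overlap between moved and kept marine fish, or between marine and freshwater fish. By design it cannot be separated from either comparison, though some results at equal depth are given below.

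The gill is where a bony fish exchanges salt with the water around it. In the sea, its salt-transporting cells (ionocytes) secrete the sodium and chloride that the animal takes in, and in fresh water ionocytes of another kind take salt up, so a fish that changes water remodels this epithelium. Sticklebacks are marine fish that have settled lakes many times, and lake and sea populations differ in how they cope with salt. Genes are known here by ID alone, and no ID matched the reference table used here, so no gene can be tied to these roles, the gill label could not be checked against cell markers, and few IDs are printed. In whole gill tissue, fewer cells of a type and less RNA per cell cannot be told apart.

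Of the 22456 genes, 12298 reached 5 CPM in kept marine fish, and 479 of these were lower by 0.7 log2 units or more in moved marine fish. The requirement that no moved marine fish overlap a kept marine fish left out 332 of the 479, and the limit on freshwater fish left out a further 18. Of those 18, 13 were higher and 5 lower in moved than in kept freshwater fish. The member nearest the limit on the fall had a log2 ratio of -0.703, and the nearest gene outside it had -0.6998. The gap between marine groups was often narrow: the lowest kept fish exceeded the highest moved fish by a ratio of 1.13 at the median member, 1.85 at the widest and 1.0008 at the narrowest. Moved marine fish 5 was the highest of its group and kept marine fish 5 the lowest of its group for 62 of the 129 members. Without either of these fish the same rule found 78 (moved fish 5) and 75 (kept fish 5) of the members again, and without moved marine fish 1 and 2 together it found 85. In each of these runs the list reached its cap of 150 genes. A member could thus drop out by rank while still meeting every limit, so these counts do not measure dependence on the fish left out. At equal depth, with every library thinned to 6932688 counts, it found 109.

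**Figure D1:**
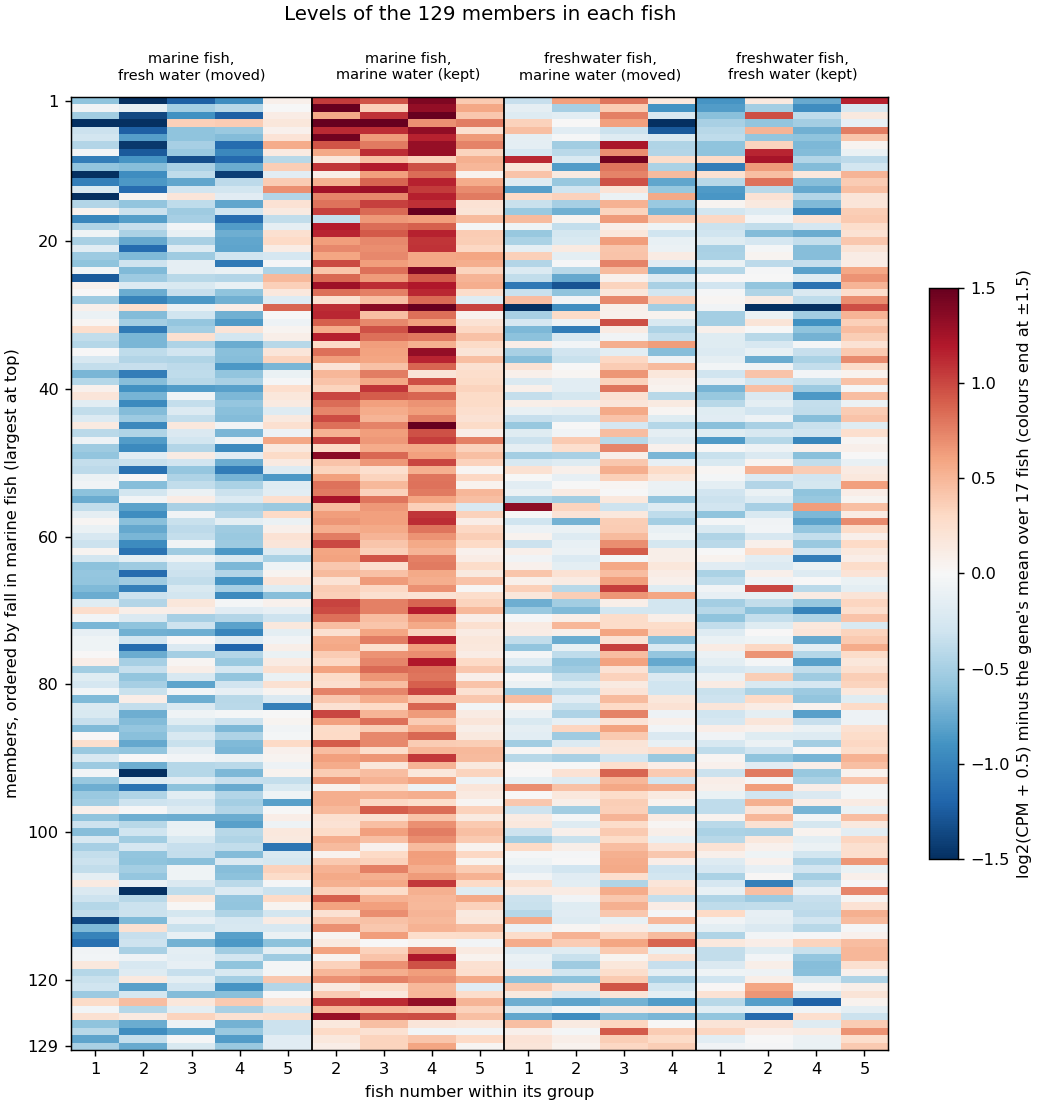
Levels of the 129 members (rows, largest fall in marine fish at the top) in each of 17 fish (columns, grouped), as log2(CPM + 0.5) minus the gene's mean over all fish. Kept marine fish are above the mean for 120 to 129 members, and among freshwater fish moved fish 3 is above it for 113 and kept fish 5 for 104.

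In moved marine fish the members stood at a median of 54.4% of their kept marine mean, within a range of 28.0% to 61.2%. The log2 ratio of moved over kept marine fish had a median of -0.86, and 29 members were lower by 1 log2 unit or more. For the 12298 genes at 5 CPM or more the median ratio was -0.06. Together the members made up 1.10 ± 0.217% of all counts in moved marine fish (SD, n = 5) and 2.14 ± 0.356% in kept marine fish (n = 4). Single fish held 1.16%, 0.859%, 1.14%, 0.930% and 1.41% in moved marine fish 1 to 5, and 2.32%, 2.11%, 2.48% and 1.66% in kept marine fish 2 to 5. Moved fish 2, the shallowest library, was the lowest, and the kept fish nearest to the moved fish was fish 5, the deepest of its group. Whether depth had a part in this order was not tested.

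Member levels spanned a wide range. Means in kept marine fish ran from 5.06 to 1475 CPM with a median of 51.4 CPM. The 13 members under 10 CPM had a median log2 ratio of -1.14, the 81 members from 10 to under 100 CPM had -0.81, and the 35 members at 100 CPM or more had -0.90. A ratio of -1 or lower was reached by 8, 13 and 8 members of these classes. Both the falls and the levels in kept marine fish entered the choice, so these counts describe the members chosen. By edgeR's quasi-likelihood test with all fish, 81 members passed an adjusted p of 0.05 in this direction, where 1.44% of all 18238 tested genes did. DESeq2 called 120 members and 9.65% of its tested genes, and limma voom 57 members and 1.34% of genes, in either direction. Because the choice used this contrast, nothing is read from these counts. The 81 edgeR calls became 0 when kept marine fish 2, 3 or 4 was left out and 0 when the fit held marine fish alone. In each of these fits 0 of all tested genes were called in either direction. Leaving out kept marine fish 5 gave 112 calls, with 691 of 18560 tested genes called lower. Without moved marine fish 2 there were 18 (43 of 18238 genes), and without moved marine fish 4 there were 35 (70 of 18229). Leaving out moved fish 1 with moved fish 2 gave 9 (22 of 18639 genes). In the main fit 262 of 18238 genes were lower. The counts over all genes thus changed along with those of the members.

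The largest ratio, and the highest mean level in kept marine fish, belonged to ENSGACG00000014660. Moved marine fish 1 to 5 had 489.7, 187, 318, 389.8 and 780.2 CPM, against 1537, 1430.0, 1959 and 976 CPM in kept marine fish 2 to 5. Moved fish averaged 433 ± 223 CPM (SD, n = 5) and kept fish 1475 ± 404 CPM (n = 4), a log2 ratio of -1.77. Fish 5 was the highest of the moved and the lowest of the kept fish. Moved freshwater fish 1 to 4 had 581, 1139, 1289.9 and 826 CPM, and kept freshwater fish 1, 2, 4 and 5 had 400.1, 819, 438 and 1651.5 CPM. Freshwater fish spread over most of the interval covered by both marine groups, and kept freshwater fish 5 lay above 3 of the 4 kept marine fish. All counts of this gene were multiples of 3.

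ENSGACG00000018249, next in the order of ratios, was far less abundant, and a single animal weighed heavily in its ratio. Moved marine fish 1 to 5 had 3.08, 2.88, 2.11, 2.28 and 3.19 CPM, against 20.7, 4.24, 8.71 and 5.04 CPM in kept marine fish 2 to 5. The high value was that of kept fish 2, and the other kept fish were nearer to the moved fish. Moved freshwater fish 1 to 4 had 2.86, 2.12, 4.34 and 1.497 CPM, and kept freshwater fish 1, 2, 4 and 5 had 1.58, 2.11, 1.44 and 2.63 CPM. Moved freshwater fish 3 exceeded the lowest kept marine fish, and the other 7 freshwater fish were below the highest moved marine fish.

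**Figure D2:**
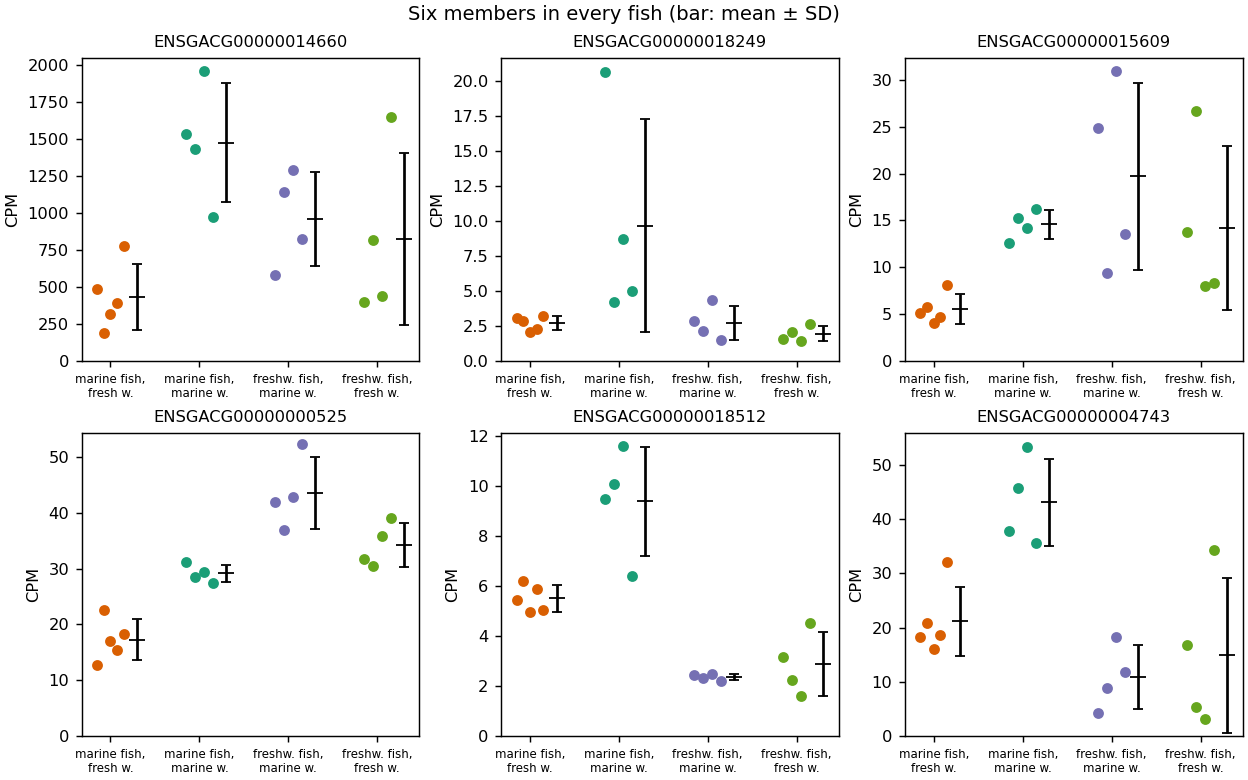
CPM of 6 members in every fish (points, in order of fish number) with mean ± SD (black), by group. The upper left and upper middle panels are the members with the largest falls in marine fish, and the others are members with the largest population differences in each direction.

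Between the waters, freshwater fish differed little in these genes by choice, but the choice left the direction of the difference free. By shares of the library total, 84 of 129 members (65.1%) were higher in moved than in kept freshwater fish, against 66.2% of the 11165 genes that met the same floor and the same limit. With TMM scaling (edgeR's trimmed mean of M-values, which moved the median log2 ratio of genes at 5 CPM or more in freshwater fish from 0.10 to -0.02), 66 members (51.2%) were higher, against 44.7% of those genes. The share among members therefore lay near that of other genes under each scaling. By edgeR, 0 members passed an adjusted p of 0.05 in freshwater fish, where 0.751% of tested genes did, 0.121% as higher and 0.631% as lower in moved fish. At an unadjusted p below 0.05 there were 2 members, against 1725 of the 18238 genes tested by edgeR. DESeq2 and limma voom also called 0 members. Of all genes, DESeq2 called 73 higher and 277 lower in moved fish (17971 tested). With limma voom 169 were called higher and 458 lower (18238 tested). The rule limited the size of this ratio, so nothing is read from these counts.

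The interaction, in which the effect of fresh water in marine fish is set against that in freshwater fish, had a median of -0.90 log2 units over the members and 0.02 over all tested genes. It is built from the differences that chose the members. By edgeR 0 of the 129 passed, where 0.011% of tested genes did. An unadjusted p below 0.05 was reached by 107 members and by 3140 of the 18238 tested genes. DESeq2 called 21 members (1.45% of its tested genes) and limma voom 0 (0.0439% of genes). By edgeR the response to fresh water was not shown to differ between populations for any single member, whereas all 21 DESeq2 calls were lower. Because the choice used both differences, nothing further is read from these counts.

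Levels in freshwater fish were next set against those in marine fish. For 96 of the 129 members the mean of the 8 freshwater fish lay between the moved and the kept marine mean, for 27 it lay below the moved marine mean, and for 6 above the kept marine mean. On the log2 scale the freshwater mean was nearer to the moved marine mean for 86 members and nearer to the kept marine mean for 43. With the moved marine mean set at 0 and the kept marine mean at 1, the median position of freshwater fish was 0.317 (quartiles 0.106 and 0.669). Both marine means entered the choice, so this is a description. Under TMM scaling 33 members were below and 5 above the marine means.

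Freshwater individuals did not share a single position. Moved freshwater fish 3 was at or above the lowest kept marine fish for 83 members, and kept freshwater fish 5 for 63. The other freshwater fish reached that level for 25, 22 and 29 members (moved fish 1, 2 and 4) and for 18, 33 and 12 (kept fish 1, 2 and 4). Members took 1.21%, 1.29%, 1.84% and 1.30% of counts in moved freshwater fish 1 to 4. They took 1.12%, 1.31%, 1.03% and 1.74% in kept freshwater fish 1, 2, 4 and 5. In each water, then, 1 of 4 freshwater fish carried the members near the level of kept marine fish 5 (1.66%), and the others were within the range of moved marine fish.

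**Figure D3:**
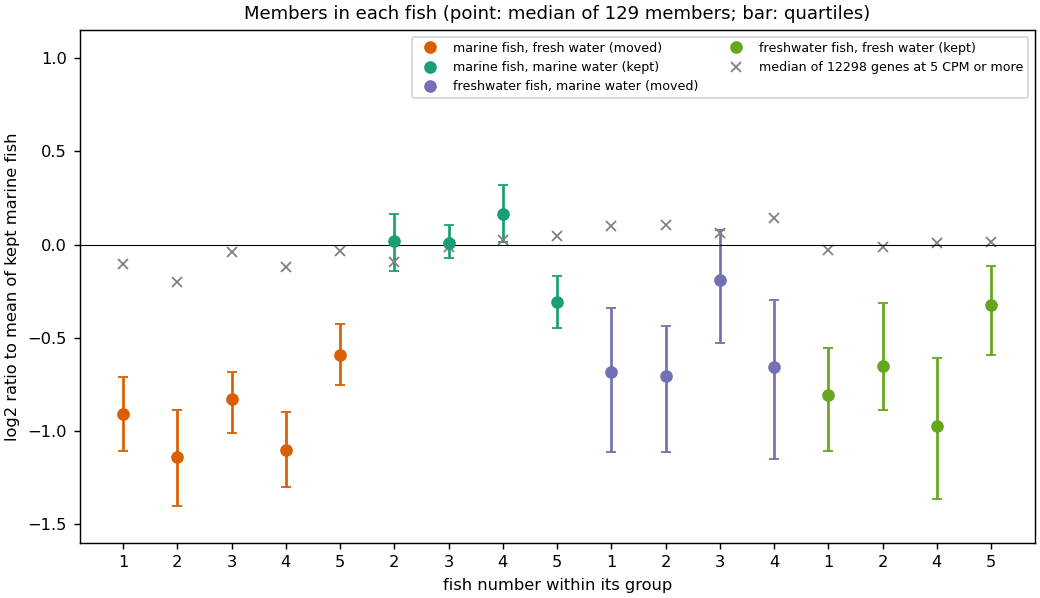
Median (point) and quartiles (bar) over the 129 members of the log2 ratio of each fish to the mean of kept marine fish, by fish. Crosses give the median over 12298 genes at 5 CPM or more, which stays between -0.20 and 0.14, while moved freshwater fish 3 (-0.19) and kept freshwater fish 5 (-0.32) lie above the other freshwater fish (-0.97 to -0.65).

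Whether the populations differ in these genes was tested as the mean of both freshwater groups minus the mean of both marine groups, a difference that the choice did not use, though it draws on the same marine fish and the floor of 5 CPM was set in kept marine fish. More members were lower in freshwater fish than higher. By edgeR's quasi-likelihood test, adjusted over 18238 genes, 36 members (27.9%) were lower and 7 (5.43%) higher, and 86 passed in neither direction. The backgrounds were 33.5% of tested genes in either direction, 16.3% lower and 17.2% higher, and among genes at 5 CPM or more in kept marine fish 18.5% lower and 18.2% higher. In either direction 43 members were called, a share close to the background of tested genes. In this fit members thus departed from the background in the split between directions, not in how often they were called. How often they were called varied more in some alternatives. Limma voom called 61 of 129 members, against 34.8% of tested genes. Without moved freshwater fish 3 and kept freshwater fish 5, edgeR called 66 members, with 3039 of 18408 genes higher and 2752 lower. With water left out of the model it called 26, with 2766 of 18238 genes higher and 2733 lower. The split differed between waters. Against kept marine fish, which the rule required to be high, 123 members were below 0 in marine water. Against moved marine fish, which it required to be low, 95 were above 0 in fresh water. How far the choice set the split was not tested, so it is not read as a trait of the members. The members' log2 differences had a median of -0.27 (quartiles -0.46 and 0.04), with 92 members below 0 (71.3%), against a median of -0.01 over all tested genes, of which 50.7% were below 0. Most differences were modest: the 36 lower members had a median of -0.65, the 7 higher members 0.57, and 5 members reached 1 log2 unit in size. Most members varied together among freshwater fish, as described below. The counts by direction are therefore not separate results for each member.

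DESeq2 called 44 members lower and 7 higher (34.2% of its tested genes in either direction, 3705 lower and 3154 higher). With limma voom 57 members were lower and 4 higher (34.8% of genes, 2935 lower and 3420 higher). The counts by direction depended on a few fish and on the scaling. Without moved freshwater fish 3 and kept freshwater fish 5, an omission chosen after their levels were seen, 63 members were lower and 3 higher. Of 18408 tested genes 2752 were then lower and 3039 higher. The 7 higher members became 3 without kept marine fish 2, moved marine fish 4 or moved freshwater fish 3. They became 4 without kept marine fish 4, kept marine fish 5 or moved freshwater fish 1. In these single omissions 2545 to 3359 of all tested genes were called higher, against 3140 in the main fit. When libraries were scaled by their totals alone, 28 members were lower and 11 higher. Of all 18238 tested genes 2135 were then lower and 4279 higher, against 2975 and 3140 in the main fit. The members thus shifted in the same direction as all genes. Within each water the comparison rests on a marine group that chose the members, so the values are given as a description only. In marine water, moved freshwater minus kept marine fish had a median of -0.70 over the members, with 71 called lower and 0 higher by edgeR (11.6% and 11% of tested genes). In fresh water, kept freshwater minus moved marine fish had a median of 0.19, with 16 called higher and 1 lower (8.14% and 7.07% of tested genes).

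**Figure D4:**
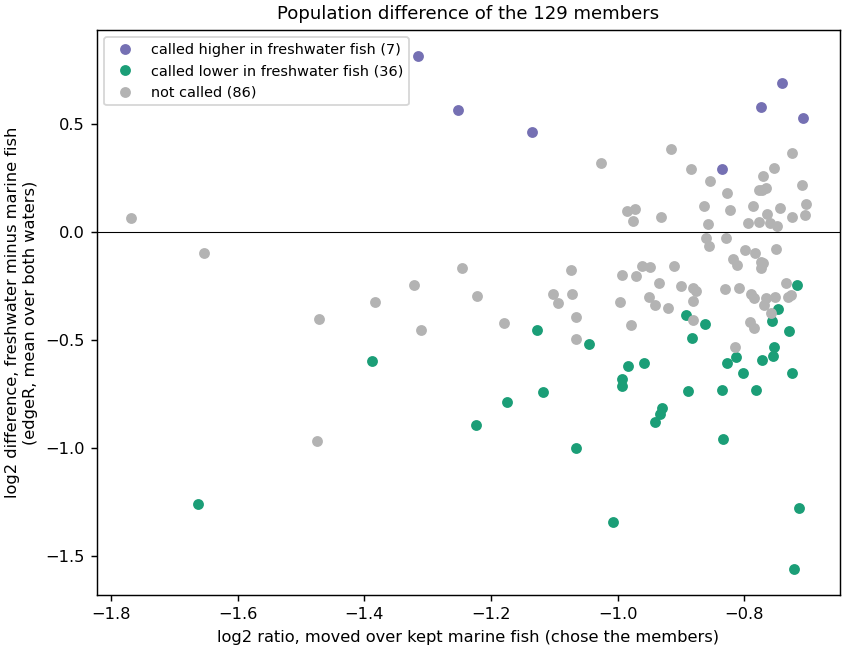
Population difference (freshwater minus marine fish, edgeR log2, mean over both waters) against the log2 ratio of moved over kept marine fish for the 129 members. The 36 members called lower and the 7 called higher in freshwater fish had like falls, with median ratios of -0.89 and -0.84, and the 86 not called had -0.85.

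A single member, ENSGACG00000018512, separated the populations without overlap, which 4.58% of tested genes did. The rule held moved and kept marine fish apart in every member, which widens the marine range, so nothing is read from this comparison of shares. The values below are those of ENSGACG00000018512. Moved freshwater fish 1 to 4 had 2.43, 2.31, 2.49 and 2.23 CPM, and kept freshwater fish 1, 2, 4 and 5 had 3.16, 2.24, 1.60 and 4.53 CPM. Moved marine fish 1 to 5 had 5.44, 6.20, 4.97, 5.89 and 5.06 CPM, and kept marine fish 2 to 5 had 9.504, 10.1, 11.6 and 6.43 CPM. All 8 freshwater fish were below all 9 marine fish, with averages of 2.62 ± 0.881 CPM (SD, n = 8) and 7.24 ± 2.48 CPM (n = 9). The log2 difference was -1.56 (SE 0.18, edgeR adjusted p = 2.9e-05), and the gene was called lower in 31 of 31 alternative analyses (log2 -1.72 to -1.46). It was -2.14 against kept marine fish in marine water (edgeR adjusted p = 1.8e-04) and -0.98 against moved marine fish in fresh water (adjusted p = 0.020).

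ENSGACG00000004743 was also lower in freshwater fish, among which it varied widely. It stood at 4.29, 8.87, 18.4 and 11.9 CPM in moved freshwater fish 1 to 4 and at 16.8, 5.39, 3.12 and 34.3 CPM in kept freshwater fish 1, 2, 4 and 5. Moved marine fish 1 to 5 had 18.3, 20.8, 16.1, 18.6 and 32.1 CPM, and kept marine fish 2 to 5 had 37.9, 45.7, 53.2 and 35.6 CPM. Moved freshwater fish 3 and kept freshwater fish 1 and 5 lay within the marine range, and the other 5 freshwater fish were below every marine fish. The log2 difference was -1.34 over both waters (SE 0.38, edgeR adjusted p = 0.012), called in 31 of 31 alternatives (log2 -1.94 to -1.17). It was -2.13 against kept marine fish in marine water (edgeR adjusted p = 0.011), the group that the rule required to be high, and -0.55 against moved marine fish in fresh water (adjusted p = 0.50). The difference over both waters thus rests mainly on a group that chose the member, and no difference was called in fresh water.

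In the opposite direction, ENSGACG00000000525 was higher in freshwater fish. Moved freshwater fish 1 to 4 had 42.0, 36.9, 42.8 and 52.3 CPM, and kept freshwater fish 1, 2, 4 and 5 had 31.7, 30.4, 35.9 and 39.1 CPM. Marine values were 12.7, 22.6, 17.1, 15.4 and 18.4 CPM in moved fish 1 to 5 and 31.2, 28.5, 29.3 and 27.5 CPM in kept fish 2 to 5. Kept marine fish 2 was the only marine fish inside the freshwater range, and moved marine fish were lower still. The log2 difference was 0.69 (SE 0.11, edgeR adjusted p = 2.2e-04), and it was called in 31 of 31 alternatives (log2 0.62 to 0.79). It was 0.42 against kept marine fish in marine water (edgeR adjusted p = 0.054) and 0.95 against moved marine fish in fresh water (adjusted p = 0.0012). No difference was called in marine water, and the larger difference is against moved marine fish, which the rule required to be low.

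ENSGACG00000015609 had the largest positive difference among the members but a wide spread in freshwater fish. Moved freshwater fish 1 to 4 had 24.9, 9.36, 31.0 and 13.5 CPM, and kept freshwater fish 1, 2, 4 and 5 had 13.7, 26.7, 8.06 and 8.30 CPM. In marine fish it was at 5.13, 5.77, 4.10, 4.66 and 8.14 CPM in moved fish 1 to 5 and at 12.6, 15.3, 14.2 and 16.2 CPM in kept fish 2 to 5. The 3 highest freshwater fish exceeded every marine fish, and the rest lay among the marine values. Its log2 difference of 0.81 (SE 0.27, edgeR adjusted p = 0.029) was lost in 10 of 31 alternatives, among them the omission of moved freshwater fish 3 (log2 0.65), of kept freshwater fish 2 (0.56), of moved freshwater fish 1 (0.75), of kept marine fish 2 or 4 (0.78 each) and of moved marine fish 4 (0.76). The log2 difference was 0.29 against kept marine fish in marine water (edgeR adjusted p = 0.61) and 1.33 against moved marine fish in fresh water (adjusted p = 0.030). It thus rests mainly on moved marine fish, which the rule required to be low, and no difference was called in marine water.

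The members also varied together from fish to fish, and this could be followed in freshwater fish, where the choice used group means only. Each freshwater fish was expressed as its deviation from its group mean in log2(CPM + 0.5), and each member was correlated over the 8 fish with the mean of the other members. The correlation exceeded 0.5 for 109 of 129 members (84.5%), with a median Pearson r of 0.77, and it was 0 or below for 4. Of 12169 other genes at 5 CPM or more, 21.2% exceeded 0.5 with the members' mean, and their median was -0.03. The shares are not like for like. Members were set against their own kind, chosen for a fall in the same direction, and other genes against genes chosen apart from them. The contrast alone therefore does not show that members are unusually coherent. These are descriptions across genes that share the same 8 libraries, with a limit of 0.5 that was set after the data had been seen.

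**Figure D5:**
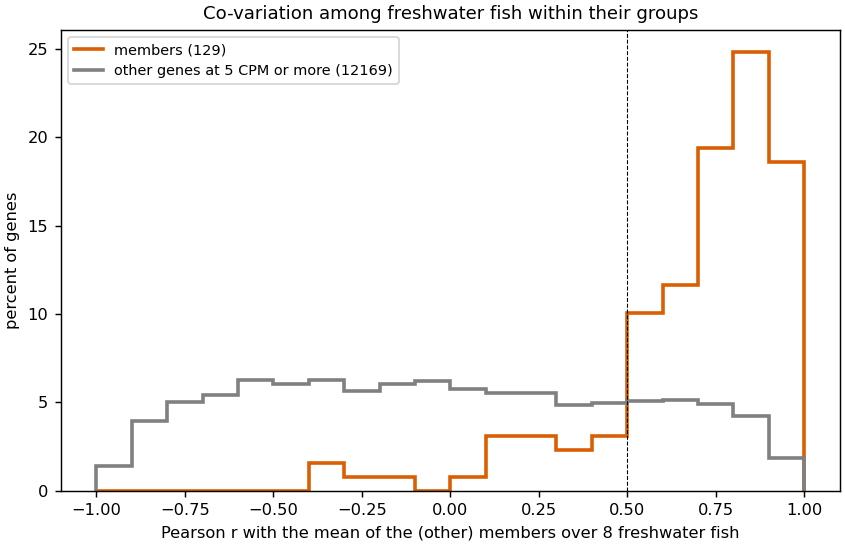
Distribution of Pearson r between each gene and the mean of the members over 8 freshwater fish, as deviations from group means. Members (orange) gather above the dashed line at 0.5, and other genes at 5 CPM or more (grey) spread over the whole range.

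The co-variation was weaker without 2 of the fish. The members' mean deviation was 0.37 log2 units in fish 3 of the moved and 0.35 in fish 5 of the kept freshwater fish, against -0.28 to 0.06 in the other freshwater fish. Moved fish 3 was highest of the moved freshwater fish for 105 members, where it was highest for 26.6% of genes at 5 CPM or more. Kept fish 5 was highest of the kept freshwater fish for 98 members, where it was highest for 32.3% of those genes. Without both fish, 64 members (49.6%) and 26.5% of the other genes exceeded 0.5. The same fish were the shallowest libraries of their groups, at 23736661 and 23609866 counts, and at equal depth 102 members exceeded 0.5. They also stood at the same end of the first principal component of the other genes, which held 28.0% of the variance among freshwater fish, with weights of 0.50 and 0.47 against -0.61 to 0.20 in the rest. The remaining freshwater fish followed this component too. In every freshwater fish the members' mean deviation had the sign of the weight, and kept fish 4 was lowest in both (-0.28 and -0.61). The co-variation is thus not shown to be particular to the members. The part of depth and of this component in the members' values was not tested.

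Members differed in how closely they followed the others. Of the 36 members lower in freshwater fish 31 exceeded 0.5, of the 86 that passed in neither direction 75 did, and of the 7 higher members 3 did. ENSGACG00000014660 (r = 0.79), ENSGACG00000018249 (0.84), ENSGACG00000004743 (0.68) and ENSGACG00000018512 (0.64) were above the limit. ENSGACG00000015609 (0.36) and ENSGACG00000000525 (0.19) were below it. The spread among freshwater fish of 1 group was also wider for members than for other genes: the median coefficient of variation of members was 22.1% in moved fish, against 13.3% for genes at 5 CPM or more, and it was 25.004% in kept fish, against 15.9%. In moved marine fish it was 22.9% against 20.6%, and in kept marine fish 19.04% against 17.2%. The condition on overlap applied to these marine groups. Moved freshwater fish 3 and kept freshwater fish 5 were highest of their groups for most members, as given above. The spread without them was not measured.

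A property of the counting applies to the members as to the rest of the table. Counts of 38 members (29.5%) were all multiples of the same whole number, 2 or larger, across the 17 fish, against 27.9% of 17449 genes with a total over 200 counts. The origin of these multiples is not given in the sources used here. The divisor was 3 for ENSGACG00000014660, 2 for ENSGACG00000004743 and 1 for the other 4 named members. Coverage of members varied: the lowest total over all fish was 1094 counts, 13 members were under 10 CPM in kept marine fish, and 1 member had a count of 0 in a fish.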

How the data were processed

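The authors deposited raw whole-number counts per gene and fish, not normalized. The submitters' processing notes name CASAVA 1.8.2 and TopHat2 2.1.0; for the counting tool, strand setting, genome build and annotation the sources used here give no name, so gene copies and overlapping or antisense genes cannot be told apart. Groups came from the sample labels, which name no batch. After filterByExpr (minimum count 10) and TMM scaling, the 4 groups were fitted together with edgeR 4.0.16 (quasi-likelihood test, no covariates). Its population log2 estimates were checked on simulated data, where genes varied independently and groups differed by population only. That check does not cover calls among chosen members that vary together. Adjusted p-values (Benjamini-Hochberg, 0.05) cover 18238 genes, all 129 members among them, and SE is the log2 difference divided by the square root of F. Alternatives were DESeq2 1.42.0, limma 3.58.1 voom with sample weights, other scalings and filters, equal depth, counts divided by their shared divisor, a replicate block, water left out and omission of fish; the omission of 2 freshwater fish and the co-variation were added after the data were seen. Members and lists were chosen with earlier results of these data known. Named genes are, by rule, the 2 members with the largest falls (the first also has the highest mean in kept marine fish) and, among those called between populations, the 2 largest differences each way, those without overlap of populations preferred where 2 exist. Of the 22456 IDs, 0 matched the 52177 genes of the reference table, so lists of markers and pathways could not be used. Libraries held 6932688 to 28960967 counts.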

Additional observations from a re-analysis of the deposited data

Results flagged for a closer look

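The share of counts held by the members was 1.837% in moved freshwater fish 3, far from the 1.21% to 1.30% of the other moved freshwater fish: the gap was 0.860 of the group's range, above Dixon's 95% critical value of 0.829 for 4 fish. ENSGACG00000004743 was at 32.12 CPM in moved marine fish 5, with the other moved marine fish at 16.1 to 20.8 CPM, a gap of 0.7103 of the range against a critical value of 0.71 for 5 fish. Of 28 groups examined, 2 held such a value, and chance gives one in about 1 in 20 groups.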

How the results depend on the processing

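The list depends on its limits and on its cap of 150 genes. With a fall of 1 log2 unit or more the rule kept the 29 members that had such a fall. Without the condition on overlap it found 55. No member can fail that looser rule, so the others were displaced by genes ranked above them. It found 85 without moved marine fish 1 and 2, and 75 to 127 when single fish were left out. Where such a list reached 150 genes, members could also drop out by rank alone. Counts in 24 of 29 alternatives were within 1.5 times of 129. Calls of the fall in marine fish (81) became 0 with the replicate block, 0 when only marine fish were fitted, 9 without moved marine fish 1 and 2, and 0 to 112 without single fish. Over all genes the calls in this direction (262 of 18238 tested) became 0, 0, 22 and 0 to 691 in the same fits. The change thus concerned the whole contrast and not the members alone. The interaction (0 calls by edgeR, with 107 members and 3140 of 18238 tested genes at an unadjusted p below 0.05) had 21 calls by DESeq2. The 43 population calls (3140 of 18238 tested genes higher, 2975 lower) became 26 with water left out of the model (2766 genes higher, 2733 lower). They became 66 without moved freshwater fish 3 and kept freshwater fish 5 (3039 of 18408 genes higher, 2752 lower), and were within 1.5 times in the other 29 of 31 alternatives. Co-variation above 0.5 (109 members) became 64 without those 2 fish. The direction count in freshwater fish (84) ranged from 61 to 110, and 0 calls of water in freshwater fish were made in 30 of 30 alternatives. The rule limited the size of that water difference, so nothing is read from the absence of calls. Deviations of same-numbered fish correlated at -0.408 to 0.292, above 0.1 in 5 of 21 pairs, and the best match had the same number in 12 of 42 cases. Such correlations cannot decide whether fish numbers pair the animals, and the main fit held no block. With the replicate block 37 members were called between populations, where 2732 of 18238 tested genes were higher and 2442 lower. The cause of these changes was not tested. Depth limits members with few counts: the lowest total over all fish was 1094, and 1 member had a count of 0 in a fish.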
